A study of Mus musculus with 4 samples.

Results

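The apolipoprotein genes Apoa1, Apoa2, Apoa4, Apoa5, Apob, Apoc1, Apoc3, Apod, Apoe and Apoh were followed in the newborn mouse ureter and in the whole newborn mouse. They were found as all probe sets (groups of short probes that together report 1 transcript) annotated to exactly 1 of these 10 gene symbols, which gave 17 of the 45101 probe sets on the Affymetrix MOE430 array and 10 of its 18194 genes with such a probe set. Of these, 13 belong to 7 genes known mainly from liver and gut (Apoa1, Apoa2, Apoa4, Apoa5, Apob, Apoc3 and Apoh) and 4 to 3 genes made in many tissues (Apoc1, Apod and Apoe). The ureter group held 3 arrays, each from whole ureters of FVB/N males at postnatal day 1 (Theiler stage 27) with the transgene SMGA/EGFP, whose parts the labels do not describe further. The reference was 1 array of a pool of whole FVB/N mice of the same age, of both sexes and with no reported transgene, so tissue, sex, transgene and pooling all differ between the groups. The labels do not state whether separate animals gave the 3 ureter samples. The p-values therefore cover the spread among these 3 arrays, part or all of which may be technical. Whole ureters and whole mice are mixtures, in which fewer cells of a type and less RNA per cell cannot be told apart.

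Apolipoproteins are the protein part of lipoproteins, the particles that carry cholesterol and triglyceride in plasma. Hepatocytes and enterocytes make Apob, which holds very low density lipoproteins and chylomicrons together, and the proteins of high density lipoprotein, of which Apoa1 is the main one. Apoe, Apoc1 and Apod are also made outside those organs, Apoe by macrophages and glia among others, and Apod, a lipocalin, by fibroblasts and glia. In the mouse genome Apoa1, Apoc3, Apoa4 and Apoa5 are direct neighbours on chromosome 9, and Apoc2, Apoc4, Apoc1 and Apoe are direct neighbours on chromosome 7.

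The 250 bases before the transcription start are shown for 6 members, because the genes of the chromosome 9 group lay together at background in the ureter while Apoe and Apod did not. They are from RefSeq (build GRCm38.p6), 5′ to 3′ on the strand of the gene and ending at the base before the first listed start. Capitals mark the motif TATAAA, the TATA box sequence. The windows lie at chr9:46228380-46228629 (Apoa1, plus strand), chr9:46240594-46240843 (Apoa4, plus strand), chr9:46268358-46268607 (Apoa5, plus strand), chr12:7977427-7977676 (Apob, plus strand), chr7:19699189-19699438 (Apoe, minus strand) and chr16:31314809-31315058 (Apod, minus strand).
Apoa1: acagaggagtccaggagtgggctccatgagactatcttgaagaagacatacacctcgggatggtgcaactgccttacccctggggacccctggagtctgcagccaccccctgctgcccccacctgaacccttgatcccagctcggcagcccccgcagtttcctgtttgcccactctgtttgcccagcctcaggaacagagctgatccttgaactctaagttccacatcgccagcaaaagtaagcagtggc
Apoa4: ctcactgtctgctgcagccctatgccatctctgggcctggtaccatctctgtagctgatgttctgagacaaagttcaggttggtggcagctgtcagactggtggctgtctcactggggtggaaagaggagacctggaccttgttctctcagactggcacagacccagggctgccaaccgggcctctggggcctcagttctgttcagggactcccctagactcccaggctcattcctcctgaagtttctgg
Apoa5: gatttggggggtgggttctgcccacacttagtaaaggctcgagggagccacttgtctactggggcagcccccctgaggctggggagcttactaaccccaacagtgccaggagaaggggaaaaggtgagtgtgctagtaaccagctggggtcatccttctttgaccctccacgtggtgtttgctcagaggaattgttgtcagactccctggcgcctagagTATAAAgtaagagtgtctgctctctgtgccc
Apob: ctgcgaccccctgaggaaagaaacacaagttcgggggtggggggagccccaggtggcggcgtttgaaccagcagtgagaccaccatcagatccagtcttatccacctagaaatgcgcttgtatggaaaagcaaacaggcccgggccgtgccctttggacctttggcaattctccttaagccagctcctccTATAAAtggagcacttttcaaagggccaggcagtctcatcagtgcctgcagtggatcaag
Apoe: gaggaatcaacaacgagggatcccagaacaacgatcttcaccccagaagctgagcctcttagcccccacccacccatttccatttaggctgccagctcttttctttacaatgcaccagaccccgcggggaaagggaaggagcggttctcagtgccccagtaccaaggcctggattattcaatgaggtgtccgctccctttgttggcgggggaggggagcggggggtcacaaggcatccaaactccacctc
Apod: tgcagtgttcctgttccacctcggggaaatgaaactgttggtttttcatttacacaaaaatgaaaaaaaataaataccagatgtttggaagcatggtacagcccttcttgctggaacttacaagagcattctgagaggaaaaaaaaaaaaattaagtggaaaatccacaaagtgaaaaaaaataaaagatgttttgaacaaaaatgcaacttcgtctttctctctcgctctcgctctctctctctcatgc
Promoters of 8 members were in the RefSeq table. TATAAA, searched on both strands, was found in those of Apoa2, Apoa5 and Apob, and in 13.0% of all 27025 promoters of the same length. In Apoa5 it began 31 bases before the start, in Apob 60 and in Apoa2 212. Exact matches were also sought, on both strands, for CAAAGTCCA and CAAAGGTCA (sites of the hepatocyte regulator HNF4 and related nuclear receptors), GTTAAT (the core of the HNF1 site), the palindromic HNF1 consensus, which overlaps that core, and TTGCGCAA (a C/EBP site). None of the 8 member promoters held any of these, against 0.381%, 0.407%, 6.52%, 0.00740% and 0.170% of all promoters. The absence covers only these exact letters in these windows.

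On the arrays, a probe set was taken as above background where it exceeded the brightest of 27 unspiked bacterial control probe sets. That level was 57.2, 212 and 101.5 intensity units in ureter replicates 1, 2 and 3 and 188 in the reference. The authors' intensities had a common trimmed mean of 1500 on all 4 arrays but medians of 154, 259 and 187 in the ureters and 332 in the reference. Values below are the deposited intensities, whereas folds, differences and tests come from a fit to quantile-normalized log2 values. Over all 13714 genes tested 3.24% were higher and 4.75% lower in the ureters, the shares against which the counts of every gene list below stand. Of 8 urothelium genes 5 were higher and of 8 smooth muscle genes 6, and all 8 of each were above background on every ureter array. Without replicate 3, 2 of the 5 urothelium calls and 4 of the 6 smooth muscle calls were lost. Calls over all probe sets tested fell from 1720 to 272 in that setting, and every loss without replicate 3 given below stands beside that fall.

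All 13 probe sets of the 7 hepatic and intestinal genes were dimmer in every ureter than in the reference, and so were 3 of the 4 probe sets of the genes of many tissues. Over all 27022 probe sets tested, 30.1% had all 3 ureters below the reference and 39.2% had all 3 above it. Of the 16 member probe sets tested, 12 were lower by limma (Benjamini-Hochberg adjusted p under 0.05 over all probe sets), against 3.42% of all probe sets tested, and 0 were higher, against 2.94%, or 6.37% in either direction. At an unadjusted p under 0.05 the member counts were 14 lower and 0 higher. The shares just given are for adjusted p and cannot be set beside these unadjusted counts. No share of all probe sets at the unadjusted level is given, so the unadjusted counts are a description only. Of the 16, 10 were at background in every ureter. They passed the filter on dim probe sets, which ranks the average of both group means, through the reference alone. Only a lower difference was open to them, so their absence among the higher calls says nothing. Their lower calls are favoured by the filter for the same reason. The 12 lower calls beside the share of 3.42% are therefore a description and no measure of enrichment. The lower probe sets were 11 of the hepatic and intestinal genes and 1 of Apoe. The spread comes from the ureters alone and was taken to hold for the single reference array too. Without ureter replicate 3 the lower member genes were 5 of 10 in place of 8, and the lower member probe sets 9 in place of 12. Over all probe sets tested, the lower calls fell from 925 to 226 in that setting.

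**Figure D1:**
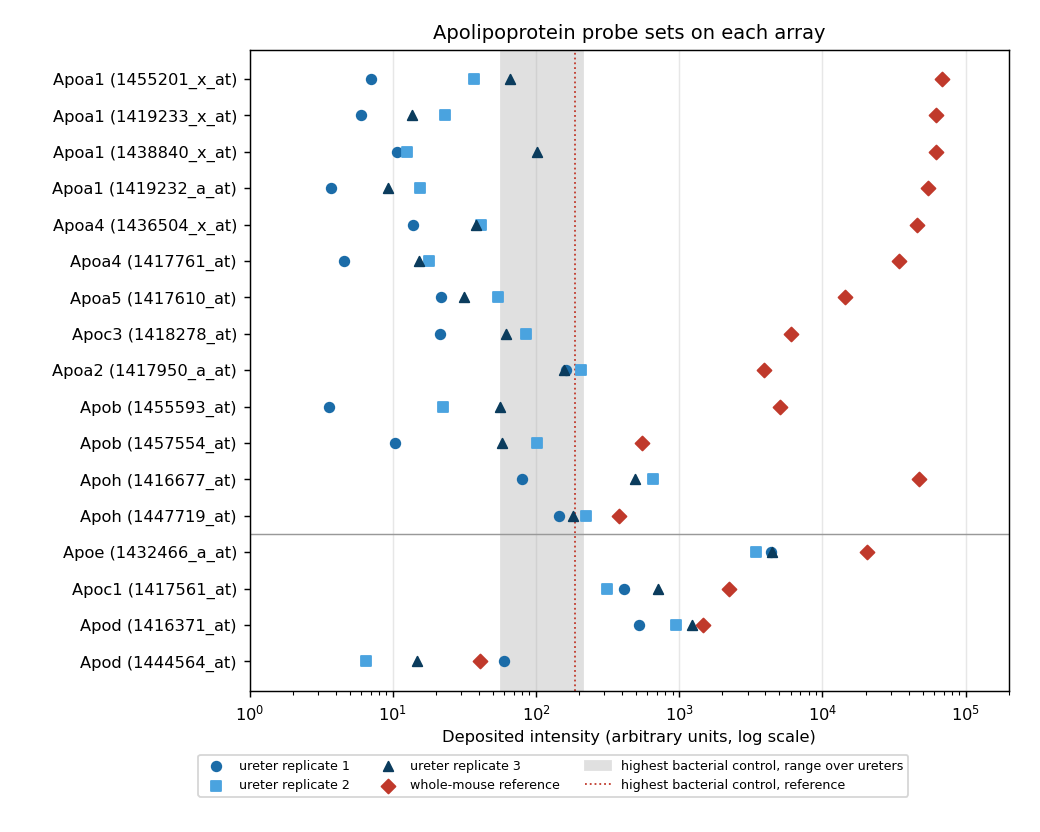
Deposited intensity (horizontal, log scale) of the 17 apolipoprotein probe sets in the 3 ureter arrays (blue) and the whole-mouse reference (red diamond); the grey band spans the background level of the 3 ureter arrays and the dotted line is that of the reference. In 10 of the 13 probe sets above the horizontal line, all 3 ureters lie at or below their own background level, whereas Apoe, Apoc1 and 1 probe set of Apod lie above it in every array.

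The 4 genes of the chromosome 9 group were at background in every ureter array, at all 8 of their probe sets. Apoa1, the main protein of high density lipoprotein and an activator of the enzyme Lcat, had intensities of 7.03, 36.6 and 66.1 in ureter replicates 1, 2 and 3, against 67947 in the reference, at its brightest probe set. The groups did not overlap, and the ureters were at least 397-fold lower (adjusted p = 0.00642). Here and at every bound below, adjusted p is that of the fitted difference (-10.26 for this probe set) and not of the bound. It rests on a spread of ureter values within background. The other 3 probe sets of Apoa1 gave bounds of 335-fold to 373-fold, with ureter intensities of 3.71 to 101.5 against 54522 to 62327 in the reference.

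Apoa4, a chylomicron protein made mostly by the gut, had 13.9, 41.4 and 37.9 in the ureters and 45809 in the reference at its brighter probe set. It was at least 287-fold lower (adjusted p = 0.00523), and its dimmer probe set gave at least 220-fold. Apoa5, a liver protein that promotes the clearance of triglyceride, had 21.5, 53.9 and 31.6 in the ureters against 14382 in the reference. No ureter approached the reference, and the bound for Apoa5 was 104-fold (adjusted p = 0.00523). Apoc3, an inhibitor of lipoprotein lipase, had 21.4, 85.4 and 61.5 in the ureters against 6038 in the reference, at least 44.0-fold lower (adjusted p = 0.0101). Because the ureter values of these 4 genes lie within background, their order in the ureter is not measured.

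Apob, the structural protein of very low density lipoproteins and chylomicrons, was also at background in the ureters. Its brighter probe set had 3.56, 22.4 and 56.1 in the ureters against 5050 in the reference, at least 36.8-fold lower (adjusted p = 0.0219). The dimmer probe set had 10.4, 102 and 57.8 in the ureters against 546 in the reference. It lay on the same side, with a bound of 2.91-fold, but did not pass (adjusted p = 0.184).

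Apoa2 and Apoh differed from the other hepatic genes in having measured values in the ureter. Apoa2, the second protein of high density lipoprotein, had 162, 207 and 156 in the ureters against 3918 in the reference, and was above background in 2 of the 3 ureters. The ureters were close to one another and far below the reference, at a log2 difference of -4.23 ± 0.47 (SE of the fit), 18.8-fold lower (adjusted p = 0.0117). Apoh, a plasma glycoprotein that binds phospholipids, had 79.6, 659 and 492 in the ureters against 47221 in the reference, above background in all 3. Replicate 1 was the lowest, and the highest ureter was 8.28 times the lowest. The difference was -6.86 ± 0.88, or 116-fold lower (adjusted p = 0.0157). A dimmer Apoh probe set had 144, 224 and 182 in the ureters against 381 in the reference and did not pass (-0.31 ± 0.57, adjusted p = 0.780), so the probe sets of Apoh disagree on the size of the difference. Without ureter replicate 3 adjusted p was 0.0578 for Apoa2 and 0.0557 for Apoh.

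The 3 genes of many tissues were above background in every ureter. Apoe, the ligand through which remnant lipoproteins bind receptors of the low density lipoprotein receptor family, had 4384, 3414 and 4453 in the ureters against 20338 in the reference. All ureters were below the reference and within 1.30-fold of one another. The difference was -2.38 ± 0.29, or 5.22-fold lower (adjusted p = 0.0144). The call was lost with arrays centred on their median (-1.59, adjusted p = 0.158) and without replicate 3 (adjusted p = 0.0743).

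Apoc1, a small apolipoprotein often made together with Apoe, had 413, 314 and 707 in the ureters against 2218 in the reference. Each ureter was dimmer, but the difference of -2.14 ± 0.61 did not pass (adjusted p = 0.0970). Apod had 521, 946 and 1220 in the ureters against 1474 in the reference at its brighter probe set. Its replicate 3 came near the reference, and the difference of -0.59 ± 0.50 did not pass (adjusted p = 0.516), which does not show that the levels were equal. A second Apod probe set, with 59.4, 6.45 and 14.7 in the ureters and 40.5 in the reference, was below the filter on dim probe sets and was not tested. With no filter its difference was 0.09 ± 1.08 (adjusted p = 0.978).

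**Figure D2:**
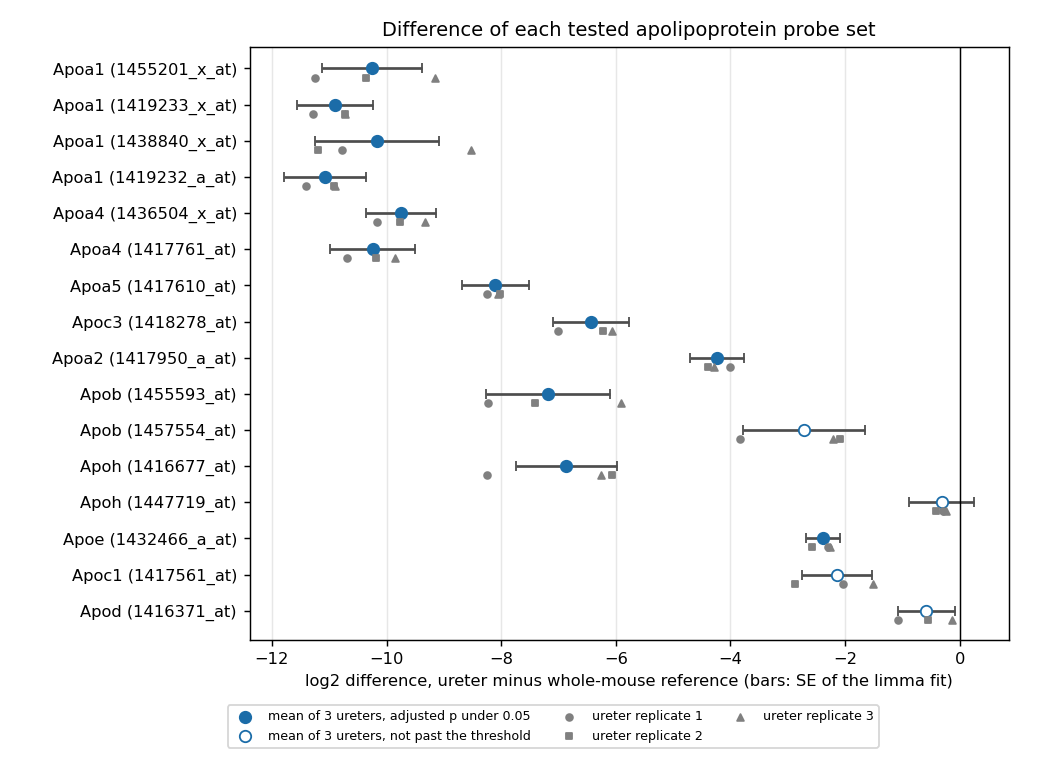
Log2 difference of ureter minus whole-mouse reference (horizontal) for the 16 tested apolipoprotein probe sets, with the SE of the limma fit as bars and each ureter array as a small grey symbol. Filled circles passed an adjusted p of 0.05; those of Apoa1 lie between -11.07 and -10.17, and Apoe at -2.38, whereas Apoc1 and Apod are open. Where all ureters are at background the position is a fitted value and no measured fold.

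By gene, represented by the brightest probe set, the 7 hepatic and intestinal members had differences of -10.26 to -4.23 with a median of -7.19, or -6.70 with members at background set to their bounds. The 3 members of many tissues ran from -2.38 to -0.59 with a median of -2.14. The median over all 13714 genes tested was 0.10. Within each array the genes can be set against each other as differences of differences. Relative to Apoa2, Apoe was less reduced by 1.71 log2 units in ureter replicate 1 and by 2.01 in replicate 3. In replicate 2 Apoa2 was at background. Relative to the brighter Apoh probe set, Apoe was less reduced by 5.95, 3.49 and 3.99 in replicates 1, 2 and 3. The dimmer Apoh probe set went the other way, since its own difference from the reference was only -0.31. These are given as a description, without a test.

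The ureters also differed among themselves. At the brightest probe set of each gene, replicate 1 was the lowest ureter for 6 of the 7 hepatic and intestinal genes and for 1 of the 3 of many tissues, against 33.2% of all probe sets tested. Most of these lay at background. The difference between replicate 1 and the mean of replicates 2 and 3 was -2.09 for the brighter Apoh probe set, but 0.04 for the dimmer one, and both were above background in all 3 ureters. It was -0.74 for Apod, 0.12 for Apoe and 0.16 for Apoc1. Likewise the SD between ureters was 1.21 log2 units at the brighter Apoh probe set, more than in 93.0% of probe sets tested, and 0.095 at the dimmer one, more than in 6.17%. The probe sets of Apoh thus disagree on the spread between ureters too. The dimmer one lay near background, at 224 against a level of 212 in replicate 2. In the reference it had 381 where the brighter one had 47221, so its small spread is weakly measured. The SD of Apoe was 0.17, more than in 16.6%.

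Other genes were low in replicate 1 as well. It lay more than 1 log2 unit below the mean of replicates 2 and 3 for 4 of 8 enterocyte genes, 4 of 13 hepatocyte genes, 4 of 7 proximal tubule genes and 3 of 11 lipoprotein receptor genes tested, against 8.97% of all probe sets tested. Those 4 enterocyte genes were above background in at most 1 ureter, so their differences between ureters are not measured. For macrophage, fibroblast and urothelium genes the counts were 0 of 10, 0 of 9 and 0 of 8, and for smooth muscle genes 1 of 8. Replicate 1 was the lowest ureter for 6 of the 8 smooth muscle genes, against 33.2% of all probe sets tested. Albumin (Alb) had 79.8, 1091 and 1035 in ureter replicates 1, 2 and 3 against 100796 in the reference, and alpha-fetoprotein (Afp) 72.1, 1065 and 716 against 81362. The proximal tubule phosphate transporter Slc34a1 had 53.2, 759 and 1153 against 792 in the reference. The nuclear receptor Hnf4a, which drives many apolipoprotein genes in liver and is also made by the proximal tubule, had 22.0, 1588 and 777 against 7272. These 4 were chosen after their values were seen, because replicate 1 was the lowest ureter in each. Others went the opposite way: transthyretin (Ttr), also made by hepatocytes, had 3259, 1233 and 1998 in the ureters against 74138 in the reference, and replicate 1 was the lowest ureter for 7 of the 13 hepatocyte genes. Over the whole lists, all 13 hepatocyte genes tested were lower than in the reference. Their summed intensities were 3867, 4844 and 4805 in the ureters against 560774, and Ttr held 3259 of the 3867 in replicate 1. Of the 13 hepatocyte genes, 5 were at background in every ureter. Among them the fibrinogen gene Fgb was at least 317-fold lower and Ambp, a plasma protein precursor, at least 154-fold. Without replicate 3, 6 of the 13 hepatocyte calls were lost, and without an intensity trend 4, Alb and Afp among them in both settings. Of 7 proximal tubule genes tested 1 was lower, the fatty acid transporter gene Slc27a2 (-4.76, adjusted p = 0.0362, and 0.129 without replicate 3). The summed intensities of the 7 were 1556, 7781 and 4390 in the ureters against 61696 in the reference. Slc27a2 alone held 671, 4573 and 1518 of these in the ureters and 53493 in the reference. The list median was -0.91, and 0 of 7 were at background in every ureter. Of 8 enterocyte genes tested 6 were lower, with sums of 667, 1540 and 799 in the ureters against 125512 in the reference. Of these sums the fatty acid binding protein gene Fabp1 held 32.6, 209 and 87.2 in the ureters and 59950 in the reference. Without replicate 3, 3 of the 6 enterocyte calls (Vil1, Lct and Cdx2) were lost. The part of liver, gut or kidney transcripts in the ureter values of Apoh was not tested.

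**Figure D3:**
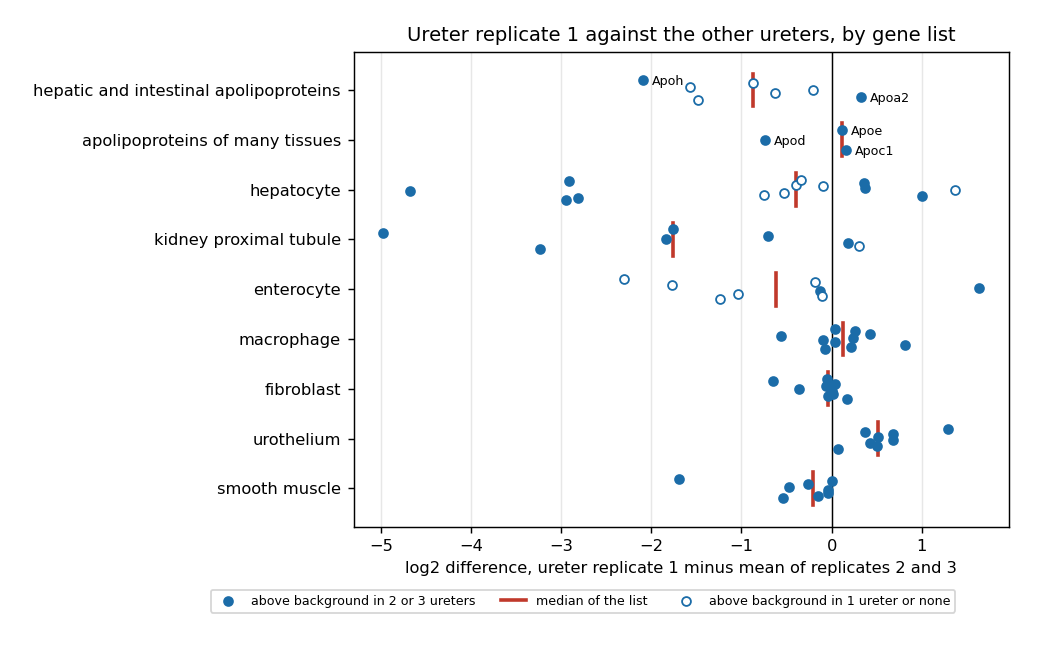
Log2 difference between ureter replicate 1 and the mean of replicates 2 and 3 (horizontal), 1 point per gene, for apolipoproteins and for marker lists; red bars are list medians, and open points were above background in at most 1 ureter. Apoh at -2.09 is the value of its brighter probe set. The hepatocyte, enterocyte and proximal tubule lists run from points well below zero to points above it (medians -0.39, -0.61 and -1.76). The macrophage (0.13) and urothelium (0.51) medians lie to the right of zero, and the fibroblast (-0.04) and smooth muscle (-0.21) medians to the left.

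Macrophages and fibroblasts are known sources of Apoe and Apod. Of 10 macrophage genes tested 1 was lower, Csf1r, which encodes a growth factor receptor (-1.51, adjusted p = 0.0298), and 0 were higher, with a list median of -0.03. Their summed intensities were 33104, 30832 and 28093 in the ureters against 53676 in the reference, and all 10 were above background in every ureter. The Csf1r call was lost with median-centred arrays (adjusted p = 0.369), without ureter replicate 3 (0.129), with no filter (0.0509) and without an intensity trend (0.106). Of 9 fibroblast genes 4 were higher and 0 lower, among them Pi16 (2.74), Dcn (1.36) and Ogn (1.28), with sums of 255612, 315649 and 271835 in the ureters against 230724. None of the 4 fibroblast calls held without replicate 3 or without an intensity trend, and a dimmer probe set of Dcn gave -0.50 (adjusted p = 0.572). Of 4 Schwann cell genes 1 was lower, the myelin gene Mbp (-3.22), a call that was lost without replicate 3 (adjusted p = 0.0817). Of the 6 other Mbp probe sets 2 did not share its direction. The part of these cell types in the values of Apoe, Apoc1 and Apod was not tested.

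The other apolipoprotein genes divided into genes at background and genes well above it. Apoc2, which activates lipoprotein lipase and lies in the chromosome 7 group with Apoe, had 2.54, 8.99 and 5.10 in the ureters against 10631 in the reference, at least 77.5-fold lower (adjusted p = 0.00919). Its neighbour Apoc4 had 14.3, 55.4 and 58.1 against 1322 and was at least 8.31-fold lower (adjusted p = 0.0432). So in this gene group Apoe and Apoc1 were above background in all ureters and Apoc2 and Apoc4 in none, whereas the difference between the neighbours was not tested.

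Apom, a plasma lipocalin made by liver and kidney tubule, had 4.35, 101 and 54.4 in the ureters against 5508 in the reference, at least 40.2-fold lower (adjusted p = 0.0250). Apof, a plasma apolipoprotein of liver, was at least 65.8-fold lower (adjusted p = 0.0102). Thus 4 of 7 other apolipoproteins were lower and 0 higher, against 4.75% and 3.24% of all genes tested, or 7.98% in either direction. These 4 were at background in every ureter, so only a lower call was open to them. Apool, a mitochondrial membrane protein in spite of its name, did not pass at its brightest probe set (-0.06, adjusted p = 0.957), but a dimmer one was lower (-2.63, adjusted p = 0.039). Clu, a secreted chaperone also called apolipoprotein J, had 8131, 9137 and 10034 in the ureters against 7727 in the reference (0.10 ± 0.27, adjusted p = 0.855). The list median was -4.37, or -3.05 with members at their bounds. Apoc4 lost its call in 4 of the alternatives, among them the scaling as deposited (adjusted p = 0.0514), and Apom lost its call without replicate 3 (adjusted p = 0.0817) and without an intensity trend (adjusted p = 0.0509).

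Genes that load lipid onto Apob were measured next. Mttp, the transfer protein without which Apob particles are not assembled, had 610, 410 and 314 in the ureters against 17631 in the reference, a difference of -5.26 ± 0.51 (adjusted p = 0.00877). It was above background in every ureter. Its other probe set gave -5.40. Of 5 assembly and editing genes tested, Mttp alone was lower, and Apobec1, the enzyme that edits the Apob transcript (-0.23), and the Mttp partner P4hb (-0.33) did not pass.

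Among 11 tested lipoprotein receptor and partner genes, 1 was higher and 0 lower at the brightest probe set, with a median of -0.10. The scavenger receptor gene Cd36 differed by -1.15 there and did not pass. Of its dimmer probe sets, 1 passed as lower (-1.62) and another did not (-0.73). The sorting receptor gene Sorl1, which binds Apoe, had 20642, 21447 and 20136 in the ureters against 5512 in the reference. No ureter overlapped the reference (1.81 ± 0.21, adjusted p = 0.0129), and another probe set of Sorl1 passed in the same direction. The call ended without replicate 3 (adjusted p = 0.0804) and without an intensity trend in the variance model (adjusted p = 0.0644). The Apoe receptor gene Lrp1 (0.47 ± 0.42, adjusted p = 0.546) and the receptor chaperone gene Lrpap1 (-0.10) did not pass. Lrp2, a proximal tubule receptor for filtered apolipoproteins, had 96.5, 2186 and 993 in the ureters against 1305 in the reference, lowest in replicate 1, and did not pass (adjusted p = 0.787). It was chosen after its values were seen.

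Of 7 genes of plasma lipases and remodelling, Pon1, an enzyme of liver carried on high density lipoprotein, was at least 136-fold lower (adjusted p = 0.00705), with 8.65, 56.4 and 44.9 in the ureters against 19216 in the reference. The phospholipid transfer protein gene Pltp (0.17) and Gpihbp1, which anchors lipoprotein lipase to capillaries (0.42), did not pass. The list had 0 higher genes and a median of -0.55. Of 7 cholesterol efflux genes 0 passed in limma's adjusted test. Abca1, which loads cholesterol onto Apoa1, had 6690, 11103 and 7831 in the ureters against 7805 in the reference (-0.03 ± 0.38, adjusted p = 0.972), and the transporter gene Abca7 differed by 0.17. The efflux median was -0.20.

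Regulators of apolipoprotein genes moved both ways. Creb3l3, a membrane-bound factor of liver and gut, had 176, 166 and 218 in the ureters against 5886 in the reference (-4.77 ± 0.53, adjusted p = 0.0118). Foxa3 was at least 15.9-fold lower (adjusted p = 0.0236), Nr1h4, the bile acid receptor, was lower (-2.99 ± 0.52, adjusted p = 0.0302), and Prox1, a factor of lymphatic vessels and liver, was lower too (-3.06 ± 0.60, adjusted p = 0.0404). Foxa1, a factor of many epithelia, urothelium included, was higher, with 25621, 13384 and 17924 in the ureters against 1636 in the reference (3.57 ± 0.40, adjusted p = 0.0122). Nr2f1, a nuclear receptor that competes with HNF4 for its sites, was higher by 1.95 ± 0.39 (adjusted p = 0.0432). So 2 of 15 regulators tested were higher and 4 lower, against 3.24% and 4.75% of all genes, and the liver X receptor gene Nr1h3 (-0.01) and Rxra (0.40) did not pass. Hnf4a itself, which varied strongly between ureters, did not pass either (-4.25 ± 1.79, adjusted p = 0.207). Of these 6 calls Creb3l3 held without replicate 3, and the other 5 had adjusted p of 0.0622 to 0.189. With the scaling as deposited, with no filter and without an intensity trend, adjusted p was 0.0746, 0.0761 and 0.0686 for Prox1 and 0.112, 0.0644 and 0.0626 for Nr2f1. Nr2f1 also missed the threshold with median-centred arrays (0.0660) and without replicate 1 (0.0588), and Nr1h4 with no filter (0.0585) and without a trend (0.0510).

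**Figure D4:**
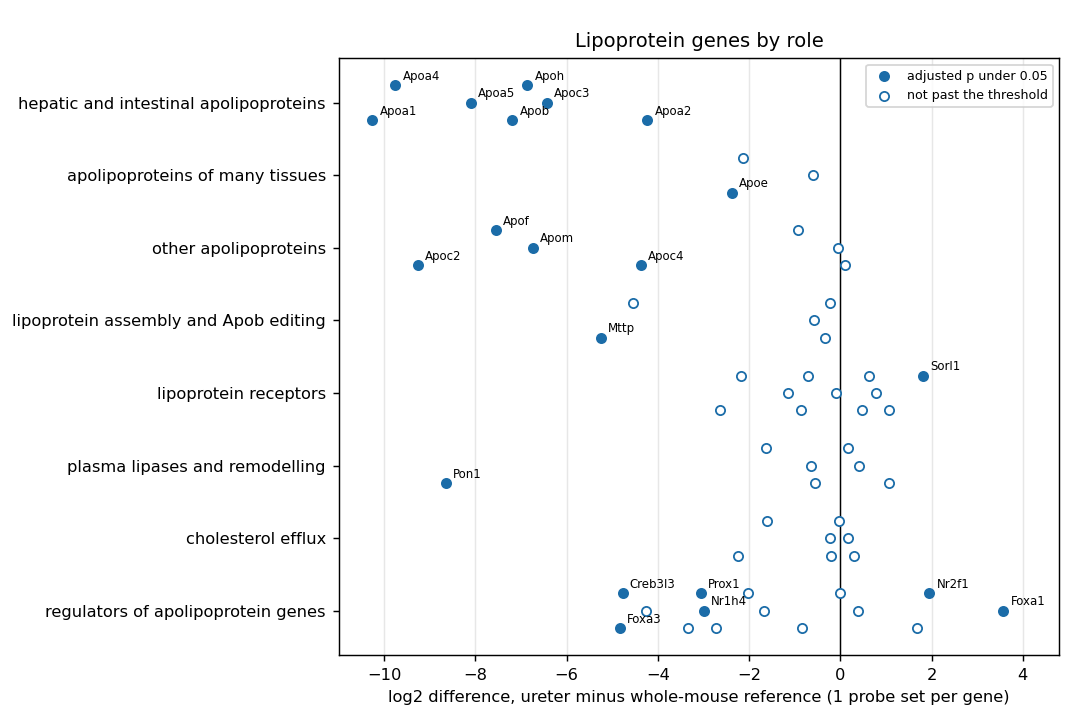
Log2 difference of ureter minus whole-mouse reference (horizontal) for lipoprotein genes by role, 1 point per gene at its brightest probe set; filled and named points passed an adjusted p of 0.05 in limma. Among the filled points the apolipoproteins, Mttp, Pon1 and 4 regulators lie to the left and Sorl1, Foxa1 and Nr2f1 to the right, and no efflux gene is filled.

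For the 4 members above background on all 4 arrays, the genes of most similar pattern were sought among 13704 other genes, by the Euclidean distance between log2 values centred on their mean over the 4 arrays. Nearest to Apoe were Nlrp6 (distance 0.13), Neurod2 (0.14) and Tmem38a (0.18), and 89 genes lay within 0.5. Nearest to Apod were Ang (0.09), Ptprg (0.10) and Erv3 (0.14), with 423 genes within 0.5, and nearest to Apoc1 were St6gal2 (0.19), itself at background in every ureter, Casp1 (0.21) and Gkn2 (0.24), with 34. Nearest to Apoh at its brighter probe set were Apom (0.18), Lce1d (0.37) and Actn2 (0.40), but Apom and Lce1d were at background in every ureter, so their pattern across the ureters is not measured. Casp1, Gkn2, Neurod2 and Actn2 were above background in 2 of 3 ureters and Erv3 in 1. With 4 arrays such likeness is a description of these arrays only.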

How the data were processed

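RNA of 3 ureter samples and 1 pooled whole-mouse sample was labelled after 2 rounds of amplification, per the labels' protocols. Each deposited value is the linear intensity of a probe set on an array, made with GCOS per the submitters' processing notes. The authors had scaled them to a common trimmed mean (2% trimmed at each end), as the values show. How background was corrected is not stated there. The number of arrays limits the precision.

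The 64 control probe sets were left out. Arrays were quantile normalized, because their median log2 intensities spanned 1.11. An offset of 12.23, the 10th percentile, was added before taking log2, which shrinks the folds of dim probe sets. Probe sets were ranked by the average of both group means and the dimmest 40% were dropped, which left 27022, 16 of the 17 members among them. That filter keeps a probe set that is bright in the reference alone.

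The test of ureters against the reference used limma 3.58.1 in R 4.3.3 (lmFit, eBayes with an intensity trend, two-sided, Benjamini-Hochberg over all probe sets tested, threshold 0.05), with 2 residual degrees of freedom. The fit was also run on simulated data. There the reference array was given the spread of the ureters, so that run cannot check whether the real reference varies like them. Where every ureter was at or below background, the fold is the reference mean over the ureters' mean of the background level or the probe's own value, whichever is higher, and is written "at least". Each of these uses the normalized log2 values.

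Gene names came from the array's platform annotation. Genes named are the 10 members, every gene of the lipoprotein lists past the threshold with up to 2 of smallest difference, up to 3 called genes of a cell type list, and the 3 genes nearest in pattern to a measured member. Outside this rule, Alb, Afp, Ttr, Fabp1, Slc34a1, Hnf4a, Lrp2 and Cd36 were named after their values were seen. The members and lists were chosen with earlier results of these data known. The alternatives were other scalings, offsets, filters and variance models, and leaving out each ureter.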

Additional observations from a re-analysis of the deposited data

How the results depend on the processing

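All 10 member genes kept the sign of their difference under every alternative run, and 12 member probe sets were lower in each of them except after median centring (11) and when replicate 3 was left out (9). Apoe lost its call in those same settings, and Apoa2 and Apoh without replicate 3. Averaging all probe sets of a gene gave -4.95 for Apob and -3.59 for Apoh. Over all probe sets the calls were 1720 (795 higher, 925 lower), 1271 on the deposited scaling (438 higher and 833 lower), 1575 after median centring (832 higher and 743 lower), 2324 with an offset of 100 (789 higher and 1535 lower), 1100 with no filter, 1074 without an intensity trend, and 272 to 2132 with 1 ureter left out. The median difference of all probe sets was 0.11, against -0.15 as deposited and 0.61 with median-centred arrays, so small differences such as that of Apod (-0.82 to -0.06) stand relative to that shift. Of the lipoprotein lists' genes, 10 were lower and 3 higher, with 5 to 13 lower and 0 to 3 higher when 1 ureter was left out, and 1 was higher without an intensity trend. The low ends came without replicate 3, and the cause was not tested. The median SD between ureters over the members was 0.48 log2 units, and 0.58 as deposited. At background the ureter levels of 5 hepatic genes are limits. No paired analysis was possible because the reference has 1 array.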
